A study of Homo sapiens with 12 samples.

Results

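The genes described here encode the enzymes and carriers of mitochondrial fuel oxidation in 2 established human lymphoma lines. They are 39 genes of the 61466 in the deposited table, found by their symbols. A first group of 22 genes covers pyruvate entry and the tricarboxylic acid (TCA) cycle, and a second group of 17 genes covers fatty acid oxidation. SU-DHL-8 and Farage are lines of diffuse large B cell lymphoma, a tumour of mature B lymphocytes, and the labels give them as wild type. Each line received either vehicle (control) or morusinol, a prenylated flavonoid of mulberry root bark, for 12 h. The labels list 3 replicates for each of the 4 groups, or 12 RNA sequencing libraries, and do not say whether the replicates were separate cultures, so p-values measure only the spread between these libraries. Neither the dose of morusinol nor the substance used as vehicle is given in the sources used here, and each group is a single line.

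Pyruvate made by glycolysis enters mitochondria through a carrier built of MPC1 and MPC2. The pyruvate dehydrogenase complex turns it into acetyl-CoA, which citrate synthase joins to oxaloacetate to begin the cycle. Long-chain fatty acids reach the same acetyl-CoA by another road: CPT1 couples them to carnitine, a carrier and CPT2 bring them into the matrix, and a spiral of dehydrogenases, hydratases and thiolases shortens them. The electrons of the first step pass through ETFA, ETFB and ETFDH to the respiratory chain. Large B cell lymphomas are known to differ in how far they rely on glycolysis or on mitochondrial oxidation.

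Levels are given in FPKM (fragments scaled to gene length and library size) so that levels of different genes can be set side by side. Low values fell on steps set by each library's depth. From these the libraries held 12.1 to 37.9 M steps (71.6% to 76.2% of values under 50 steps were whole within 0.02), with the second SU-DHL-8 morusinol library the lowest. Whether a step is a read or a fragment is not known, so no counting interval is given. All 6 B lymphocyte markers were present in every group. Their sum was 354 to 368 FPKM in SU-DHL-8 controls and 230.0 to 238 FPKM after morusinol, and 966 to 1020.0 FPKM in Farage controls and 613 to 660.0 FPKM after morusinol. The markers did not move as 1: in SU-DHL-8 CD79A went from 175 to 43 FPKM while CD79B went from 71.7 to 91.7 and PAX5 from 39.8 to 45.1. In Farage MS4A1 went from 356 to 92.9 FPKM and CD79A from 391 to 376. The part of these differences in the results was not tested. T and NK cell markers summed to at most 1.04 FPKM, myeloid markers to at most 1.78 FPKM and stromal and epithelial markers to at most 2.16 FPKM per library. The 37 genes encoded by mitochondrial DNA were listed at 0 in all libraries, so only nuclear genes are described. In a bulk RNA sample fewer cells of a kind and less RNA per cell cannot be told apart.

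Differences were tested with limma on log2(FPKM + 1), using all 12 libraries. The added 1 makes the log2 change of a low gene smaller than that of its FPKM. ECI2, ETFB, CPT2 and ETFDH of fatty acid oxidation and ACO1 of the TCA cycle are low in all groups. Their changes are thus reduced, which also enters the medians of the groups. The fit covered the 17574 genes that reached 1 FPKM in 3 or more libraries, and a Benjamini-Hochberg adjusted p under 0.05 over them counts as a call. Of the 39 genes 38 were tested. The one left out was PC (pyruvate carboxylase, which makes oxaloacetate from pyruvate), at 0.0495, 0.101 and 0.102 FPKM in SU-DHL-8 controls and 0.166, 0.195 and 0.14 FPKM in Farage controls. Its levels after morusinol were 0.0843 and 0.169 FPKM, the lowest group means of the 39 genes except in SU-DHL-8 controls. CPT1A and ACADS passed only through their Farage values, so their differences involving SU-DHL-8 are given as a description, and counts are also given without both genes.

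The first question is what each untreated line expressed. TCA cycle genes were the more abundant group in both lines, and SU-DHL-8 held more of them. Summed over the 22 genes, the SU-DHL-8 control libraries stood at 684, 692 and 679.5 FPKM and the Farage control libraries at 488, 466 and 487 FPKM. Summed over the 17 fatty acid oxidation genes, the values were 274, 283 and 269.6 FPKM in SU-DHL-8 and 246, 226 and 251 FPKM in Farage. These sums are carried by a few abundant genes and are given as a description, with no test.

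Between the control groups 17 of 21 tested TCA cycle genes were called, 6 higher and 11 lower in Farage, and 13 of 17 fatty acid oxidation genes, 5 higher and 8 lower. Over all tested genes 64.1% were called in this comparison (34.5% higher and 29.6% lower in Farage). The share depends on level: a refit of the genes reaching 5 FPKM in 3 or more libraries called 79.1%, of which 46.7% were higher. The median log2 difference, Farage minus SU-DHL-8, was -0.30 for the TCA cycle genes and -0.09 for fatty acid oxidation, beside 0.08 over all tested genes. Without CPT1A and ACADS, 3 fatty acid oxidation genes of 15 were higher and 8 lower, with a median of -0.33.

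Mitochondrial malate dehydrogenase MDH2 and citrate synthase CS led the SU-DHL-8 controls, at 104 ± 3.93 and 80.5 ± 1.81 FPKM (SD, n = 3; below, ± after an FPKM level or a ratio is this SD, and ± after a log2 difference is limma's standard error). In Farage controls MDH2 was at 44.4 ± 3.96 FPKM (log2 difference -1.21 ± 0.0642, adjusted p = 3.42e-08) and CS at 46.9 ± 3.57 FPKM (-0.77 ± 0.0512). The mitochondrial NADP-dependent isocitrate dehydrogenase IDH2 and IDH3B, a subunit of the NAD-dependent enzyme, were also lower in Farage, at -1.19 and -1.17 on the log2 scale. A pair of cytosolic enzymes went the other way: IDH1, the cytosolic NADP-dependent isocitrate dehydrogenase, was higher in Farage by 0.64 ± 0.059 and MDH1, the cytosolic malate dehydrogenase, by 0.49 ± 0.0702. ACO1, also cytosolic, was at 0.12 ± 0.0644 (adjusted p = 0.133). Genes of mitochondrial enzymes were called higher in Farage too. IDH3G and IDH3A, the partners of IDH3B, were at 0.60 ± 0.129 and 0.40 ± 0.0779, SUCLG1 at 0.22 ± 0.0621 and DLAT at 0.14 ± 0.0495.

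Among the fatty acid oxidation genes the order in Farage controls began with HADHA, the hydratase and dehydrogenase subunit of the trifunctional protein, at 78.1 ± 4.49 FPKM. It was at 64.7 ± 2.63 FPKM in SU-DHL-8 controls. ECHS1, the short-chain enoyl-CoA hydratase, stood above it in SU-DHL-8 at 72 ± 0.639 FPKM and far below it in Farage at 28.5 ± 4.16 FPKM. At the low end, CPT2, ETFDH and ETFB had means of 1.24, 1.07 and 1.1 FPKM in Farage controls. CPT2 and ETFDH did not pass the test between the control groups (adjusted p = 0.984 and 0.71).

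CPT1A and ACADS were near 0 in SU-DHL-8 and not in Farage. CPT1A, the carnitine palmitoyltransferase that admits long-chain fatty acids to mitochondria, was at 0.02, 0.0911 and 0.0515 FPKM in SU-DHL-8 controls and at 9.96, 8.96 and 9.36 FPKM in Farage controls. ACADS, the short-chain acyl-CoA dehydrogenase, was at 0.138, 0 and 0 FPKM in SU-DHL-8 and 6.3, 5.14 and 6.32 FPKM in Farage. The groups did not overlap for either gene, and in SU-DHL-8 controls both means lay below that of PC. The log2 differences of FPKM + 1 were 3.31 and 2.72, given with no test.

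The other forms of CPT1 were also low in SU-DHL-8. CPT1B had a mean of 0.267 FPKM in SU-DHL-8 controls and CPT1C one of 0.0534 FPKM, and neither was tested. ACADM, the medium-chain acyl-CoA dehydrogenase, was higher in Farage (7.91 ± 0.202 against 21.4 ± 0.93 FPKM, 1.33 ± 0.0493). ACADVL, the very long-chain enzyme, was lower there (25.5 ± 0.509 against 9.36 ± 0.548 FPKM, -1.36 ± 0.0562). The acyl-CoA dehydrogenases thus differed between the lines in opposite directions. ACAA2, the thiolase that releases acetyl-CoA, and ECI2, an enoyl-CoA isomerase, were lower in Farage at -1.24 and -1.05 on the log2 scale.

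**Figure D1:**
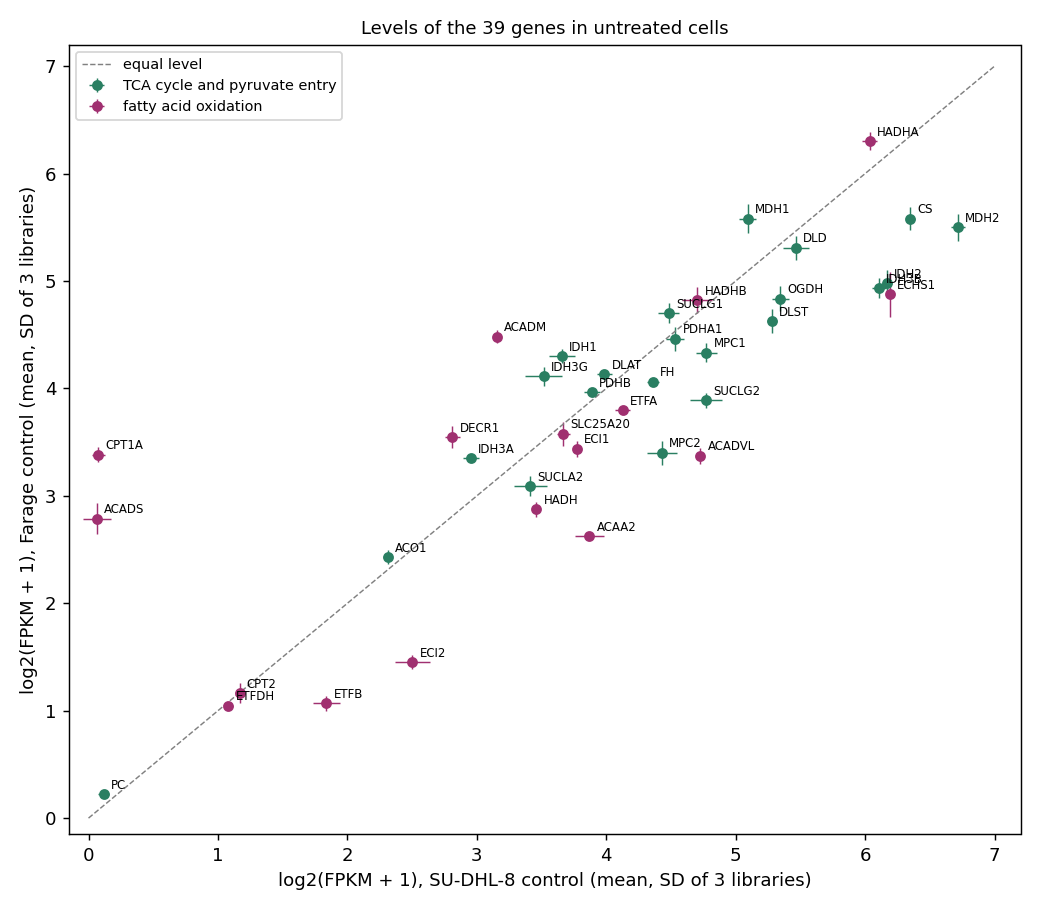
Mean log2(FPKM + 1) of the 39 genes in the 3 SU-DHL-8 control libraries (horizontal axis) and the 3 Farage control libraries (vertical axis), with SD bars; green points are TCA cycle and pyruvate entry, purple points fatty acid oxidation, and the dashed line marks equal levels. CPT1A and ACADS lie near 0 in SU-DHL-8 and well above it in Farage, while MDH2, CS and ECHS1 lie below the line.

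The second question is what morusinol changed in SU-DHL-8. Most TCA cycle genes fell: of 21 tested, 16 were lower, 3 were higher and 2 (ACO1 and IDH3G) were not called. Of 17 fatty acid oxidation genes 9 were lower, 2 were higher and 6 were not called (9 lower and 1 higher of 15 without CPT1A and ACADS). Over all tested genes 46.8% were called, 21.6% lower and 25.1% higher. Refitted over the genes reaching 5 FPKM in 3 or more libraries, 67.1% were called, of which 45.9% were higher. The median log2 fold change was -0.44 for the TCA cycle genes and -0.26 for fatty acid oxidation, beside 0.02 over all tested genes. Without the second SU-DHL-8 morusinol library, the shallowest, the counts were 16 lower and 2 higher for the TCA cycle and 9 lower and 1 higher for fatty acid oxidation.

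IDH1 went against this fall and made the largest change of the 38 tested genes. The enzyme makes NADPH and 2-oxoglutarate in the cytosol and lies on chromosome 2, 208236227 to 208266074, minus strand (GRCh38, GENCODE release 29). Control libraries were at 11.1, 12.7 and 11.2 FPKM and morusinol libraries at 52.2, 47.6 and 49.4 FPKM. Every treated library lay above every control library, with a log2 fold change of 2.01 ± 0.059 (adjusted p = 2.41e-09). The antisense gene IDH1-AS1, which overlaps IDH1, had means of 0.133 FPKM in controls and 0.467 FPKM after morusinol.

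The mitochondrial isocitrate dehydrogenases did not follow. IDH2 went from 73, 69.5 and 70.5 FPKM to 48.9, 47.8 and 46.4 FPKM, without overlap (-0.56 ± 0.0666, adjusted p = 4.56e-05). Of the NAD-dependent enzyme, the catalytic subunit gene IDH3A was at -0.63 and IDH3B at -0.44 on the log2 scale, while IDH3G was at -0.32 ± 0.129 (adjusted p = 0.0673; 0.0435 without control library 2 and 0.0389 without Farage morusinol library 1). IDH3G overlaps SSR4 on the opposite strand, whose mean went from 14.9 to 29.4 FPKM. The strand of counting is not given, and the part of SSR4 in the IDH3G values was not tested. The ratio of IDH1 to IDH2 was 0.152, 0.182 and 0.158 in the control libraries and 1.07, 0.997 and 1.06 after morusinol.

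The subunits of the mitochondrial pyruvate carrier moved apart. MPC1 (chromosome 6, 166364919 to 166383013) went from 27.2, 27.3 and 24.6 to 45.2, 48.4 and 47 FPKM, a log2 fold change of 0.81 ± 0.0624 (adjusted p = 1.87e-06). MPC2 (chromosome 1, 167916729 to 167937040) went from 20.0, 22.5 and 19.1 to 9.89, 12.1 and 12 FPKM, -0.81 ± 0.0964 (adjusted p = 4.88e-05). Neither gene's groups overlapped, and the ratio of MPC1 to MPC2 rose from 1.28 ± 0.072 to 4.17 ± 0.358. MPC2 overlaps DCAF6 on the opposite strand, which was at 11.3 FPKM in the controls and 8.26 FPKM after morusinol.

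Sequence upstream of a RefSeq start is shown for MPC1 and MPC2, which moved in opposite directions, for IDH1, which rose most, and for CPT1A, which was near 0 in SU-DHL-8. Each line comes from the 250 bases before a RefSeq start (GRCh38.p14, 5′ to 3′ on the gene's own minus strand), ended before the first base that lies in any GENCODE exon of that gene. The stretches of MPC2 and IDH1 lie upstream of a start inside the gene, within the span from its first to its last exon, and not before the gene's outermost start. Capitals mark CCAAT boxes, read as CCAAT or, on the other strand, ATTGG.
MPC1, chr6:166383014-166383190: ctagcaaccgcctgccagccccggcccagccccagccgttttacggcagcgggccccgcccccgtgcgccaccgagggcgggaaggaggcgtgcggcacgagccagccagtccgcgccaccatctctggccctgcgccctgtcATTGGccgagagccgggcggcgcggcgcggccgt
MPC2, chr1:167936041-167936246: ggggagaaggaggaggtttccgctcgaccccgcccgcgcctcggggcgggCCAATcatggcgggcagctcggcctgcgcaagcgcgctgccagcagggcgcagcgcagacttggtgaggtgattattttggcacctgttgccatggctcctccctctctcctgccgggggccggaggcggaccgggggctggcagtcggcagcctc
IDH1, chr2:208255134-208255321: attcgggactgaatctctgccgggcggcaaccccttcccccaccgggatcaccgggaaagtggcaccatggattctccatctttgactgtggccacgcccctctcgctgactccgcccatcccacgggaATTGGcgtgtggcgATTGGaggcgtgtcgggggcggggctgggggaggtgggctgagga
CPT1A, chr11:68844411-68844527: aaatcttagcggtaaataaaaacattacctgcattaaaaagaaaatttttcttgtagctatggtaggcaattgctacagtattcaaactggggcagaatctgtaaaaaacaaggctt

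A CCAAT box, a common element near gene starts that the factor NF-Y can bind, was found in 13 of 28 whole windows of TCA cycle genes and 3 of 19 windows of fatty acid oxidation genes. Of all 35116 windows from RefSeq, 32% held one. MPC1 and MPC2 each held 1 in the windows shown and IDH1 held 2, while the CPT1A window held none. MPC2 has 2 further windows and IDH1 has 1 further window in the table, all without the box. Of the sequences shown, that of CPT1A (117 bases) had a GC content of 32.5% and 1 CG pair, and that of MPC1 (177 bases) had 77.4% and 24. Their whole windows of 250 bases had 44.4% and 7 for CPT1A and 77.6% and 34 for MPC1. The whole window of ACADS, also near 0 in SU-DHL-8, had 62.8% and 23. Both strands were also searched for CCGGAAGT (ETS factors), found in 3 TCA cycle and 1 fatty acid oxidation windows and 3.42% of all windows. The cyclic AMP response element TGACGTCA, the ATF4-C/EBP element TGATGNAA, the SREBP element TCACNCCAC and the estrogen-related receptor element TCAAGGTCA were in none of these windows. Of all windows they were in 1.65%, 3.14%, 0.883% and 0.319%. Windows were found for 21 TCA cycle genes and 15 fatty acid oxidation genes. A match of letters is a description and does not show binding.

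Within the pyruvate dehydrogenase complex, which joins glycolysis to the cycle, 3 of the 4 subunit genes in the first group fell in SU-DHL-8. A further subunit gene, PDHX, read from the lists around the pathways, was not called. It was at -0.17 ± 0.0894 in SU-DHL-8 (adjusted p = 0.149) and 0.04 ± 0.0894 in Farage (adjusted p = 0.746). The E1 genes PDHA1 and PDHB changed by -0.60 ± 0.0692 and -0.34 ± 0.053 and the E2 gene DLAT by -0.66 ± 0.0495. DLD, the E3 subunit, which this complex shares with the 2-oxoglutarate dehydrogenase complex, rose by 0.22 ± 0.0699 (adjusted p = 0.0252). The call on DLD was lost when libraries were rescaled to a common sum (0.12, adjusted p = 0.294). It was also lost without the third control library (adjusted p = 0.0965), the first morusinol library (0.0662) or the second (0.0765).

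Most genes of the later steps fell. OGDH, the E1 subunit of the 2-oxoglutarate dehydrogenase complex, fell most, from 38.7, 38.5 and 41.8 to 16.1, 20.1 and 17.5 FPKM without overlap (-1.11 ± 0.0873, adjusted p = 2.14e-06). Its partner DLST, the E2 subunit, fell from 37.9 ± 0.979 to 27.6 ± 0.348 FPKM (-0.44 ± 0.0506). The succinyl-CoA synthetase genes SUCLG1, SUCLG2 and SUCLA2 changed by -0.28, -0.30 and -0.43, and fumarase FH by -0.58. Both malate dehydrogenases fell, the cytosolic MDH1 at -0.73 and the mitochondrial MDH2 at -0.62. ACO1, the cytosolic aconitase that also acts as an iron-regulatory protein, was at 3.96 ± 0.111 and 3.69 ± 0.247 FPKM (-0.08 ± 0.0644, adjusted p = 0.349).

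**Figure D2:**
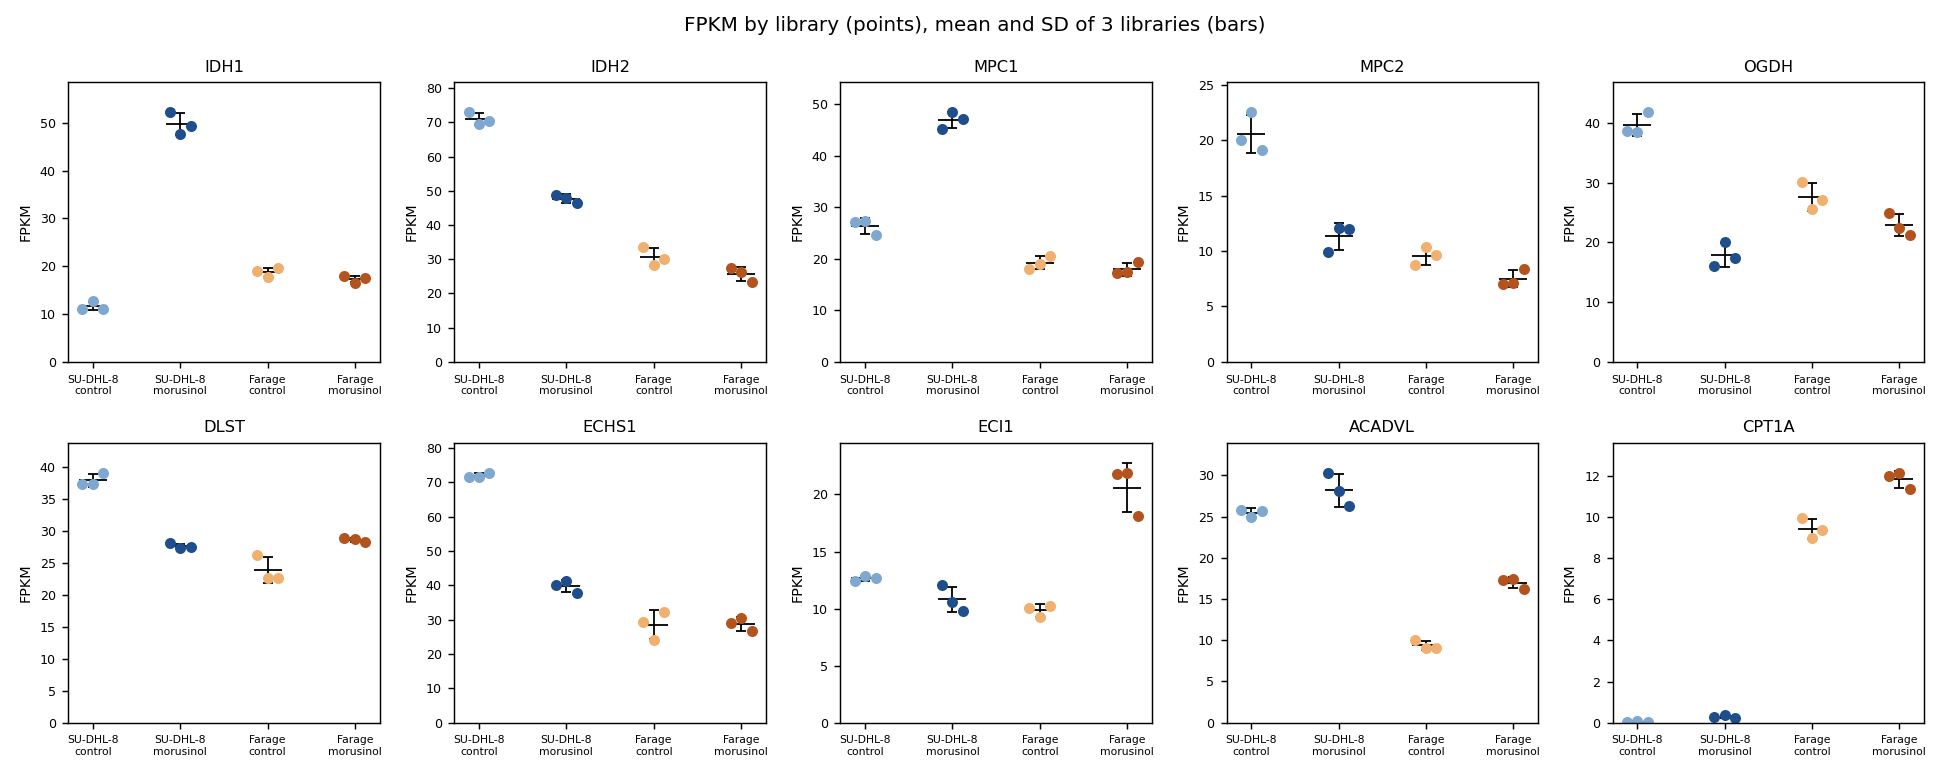
FPKM of 10 genes in every library (points; 3 per group) with the mean and SD (bars), on linear axes from 0. IDH1 and MPC1 are high in the 3 SU-DHL-8 morusinol libraries alone, ECI1 is high in the 3 Farage morusinol libraries alone, and CPT1A stays under 0.4 FPKM in all 6 SU-DHL-8 libraries.

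In fatty acid oxidation the lower genes in SU-DHL-8 included enzymes of the spiral, a carrier and electron-transfer genes. ECHS1, which hydrates short-chain enoyl-CoA, went from 71.6, 71.6 and 72.7 FPKM in the control libraries to 40.1, 41.2 and 37.8 FPKM after morusinol. No treated library reached a control library (-0.84 ± 0.0897, adjusted p = 2.13e-05). The short-chain hydroxyacyl-CoA dehydrogenase HADH was lower, at -0.49, ACADM at -0.40, ACAA2 at -0.39 and ECI2 at -0.30 on the log2 scale. The electron carrier genes ETFA and ETFB were lower, at -0.40 and -0.38, and the carnitine-acylcarnitine carrier SLC25A20 at -0.26. The thiolase subunit of the trifunctional protein, HADHB, changed by -0.34 ± 0.0749, while its partner HADHA, which lies head to head with it and overlaps it, was at -0.07 ± 0.0464 (adjusted p = 0.266).

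CPT1A stayed under 0.4 FPKM in SU-DHL-8, at 0.255, 0.377 and 0.224 FPKM after morusinol, and rests on as few as 4 counting steps in a library, so nothing is read from its call. DECR1, a reductase for unsaturated fatty acids, was the other gene called higher, from 6.03 ± 0.274 to 6.92 ± 0.393 FPKM (0.17 ± 0.0587, adjusted p = 0.0343). It overlaps NBN on the opposite strand (27.7 and 30.3 FPKM). The call on DECR1 was lost with libraries rescaled to a common sum (0.09, adjusted p = 0.403). It was also lost without the first control library (adjusted p = 0.111), the third (0.0875), the first morusinol library (0.0964) or the second (0.11). ACADVL (0.14 ± 0.0562, adjusted p = 0.0673), ECI1 (-0.22 ± 0.0826, adjusted p = 0.0547), CPT2 and ETFDH did not pass the test. ACADS, near 0 in SU-DHL-8, was at 0.21 on the log2 scale, given as a description.

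The third question is what morusinol changed in Farage. TCA cycle genes fell here too: of 21 tested, 16 were lower, 1 was higher and 4 were not called. Fatty acid oxidation did not lean one way, with 4 of 17 lower, 4 higher and 9 not called. Without CPT1A and ACADS, 4 of 15 were lower and 3 higher, with a median log2 fold change of 0.02. Over all tested genes 43.1% were called, 21.2% lower and 21.9% higher. Refitted over the genes reaching 5 FPKM in 3 or more libraries, 63.6% were called, of which 52% were higher. The median log2 fold change was -0.32 for the TCA cycle genes and 0.06 for fatty acid oxidation, beside -0.03 over all tested genes. The share of fatty acid oxidation genes called lower, 23.5%, lay near that of all genes, and the share of TCA cycle genes, 76.2%, lay above it.

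All 3 tested subunits of the E1 and E2 parts of pyruvate dehydrogenase fell in Farage, DLAT at -0.73, PDHA1 at -0.38 and PDHB at -0.30 on the log2 scale. The largest fall was that of IDH3A, from 9.05, 9.13 and 9.46 to 5.34, 4.39 and 4.96 FPKM, with no overlap (-0.80 ± 0.0779, adjusted p = 1.54e-05). Other falls were those of SUCLA2, the ATP-forming subunit of succinyl-CoA synthetase, at -0.59 ± 0.0767, FH at -0.58 ± 0.042 and MDH2 at -0.57 ± 0.0642. CS went from 46.9 ± 3.57 to 35.8 ± 1.44 FPKM (-0.38 ± 0.0512).

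OGDH and MPC2, the lead falls in the cycle and the carrier in SU-DHL-8, were called lower in Farage as well. OGDH was at 30.2, 25.6 and 27 FPKM in controls and 24.9, 22.4 and 21.2 FPKM after morusinol (-0.26 ± 0.0873, adjusted p = 0.0338). Its call was lost without control library 1 or 3 (adjusted p = 0.122 and 0.0622) or morusinol library 2 or 3 (0.087 and 0.111). MPC2 was at 8.77, 10.4 and 9.62 FPKM in controls and 7.01, 7.08 and 8.39 FPKM after morusinol (-0.32 ± 0.0964, adjusted p = 0.0212). Its call was lost without control library 2 or 3 (adjusted p = 0.08 and 0.0539) or morusinol library 1 or 2 (0.0731 and 0.0705). Neither gene's groups overlapped.

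DLST was the 1 TCA cycle gene that rose in Farage. Its control libraries were at 26.1, 22.7 and 22.6 FPKM and its morusinol libraries at 28.8, 28.6 and 28.2 FPKM. The 3 treated libraries lay close together above the controls (0.26 ± 0.0506, adjusted p = 0.00199). IDH1 was at 18.9, 17.7 and 19.6 FPKM in controls and 18, 16.6 and 17.5 FPKM after morusinol, which overlap (-0.11 ± 0.059, adjusted p = 0.184). MPC1 was at -0.09 ± 0.0624 (adjusted p = 0.272), DLD at -0.02 ± 0.0699 and IDH3G at -0.17 ± 0.129, none of them called.

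The rises in Farage fatty acid oxidation were led by ECI1 and ACADVL. ECI1, an enoyl-CoA isomerase needed for unsaturated fatty acids (chromosome 16, 2239395 to 2252300), went from 10.1, 9.22 and 10.2 to 21.8, 21.9 and 18.1 FPKM (0.99 ± 0.0826, adjusted p = 4.89e-06). ACADVL (chromosome 17, 7217125 to 7225273) went from 9.99, 9.09 and 9 to 17.3, 17.4 and 16.2 FPKM (0.80 ± 0.0562, adjusted p = 1.44e-06). Both genes stood clear of their controls in all 3 treated libraries. CPT1A rose from 9.43 ± 0.502 to 11.8 ± 0.403 FPKM (0.30 ± 0.0676, adjusted p = 0.0043), a call lost with a pseudocount of 0.1 (0.33, adjusted p = 0.215). Its Farage groups did not overlap, and the spread in both fits also takes in its SU-DHL-8 values near 0. ETFDH was called at 0.20 ± 0.075 (adjusted p = 0.0489), but the call did not survive leaving out any one of the 12 libraries (adjusted p from 0.0593 to 0.115).

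The falls were those of ACADM (-0.52 ± 0.0493), HADH (-0.27 ± 0.0613), ETFA (-0.27 ± 0.0423) and DECR1 (-0.32 ± 0.0587). ACADM overlaps RABGGTB on the same strand, whose means were 44.2 FPKM in controls and 33.2 FPKM after morusinol, and ETFDH overlaps PPID and C4orf46 on the opposite strand. ECHS1, which fell in SU-DHL-8, was at 29.2, 24.1 and 32.4 FPKM in the Farage controls and 29, 30.5 and 26.6 FPKM after morusinol, which overlap (0.02 ± 0.0897, adjusted p = 0.916). HADHA and HADHB were at -0.06 ± 0.0464 and 0.06 ± 0.0749, ACAA2 at 0.08 ± 0.0562 and ECI2 at 0.07 ± 0.0743, and none of them passed the test.

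**Figure D3:**
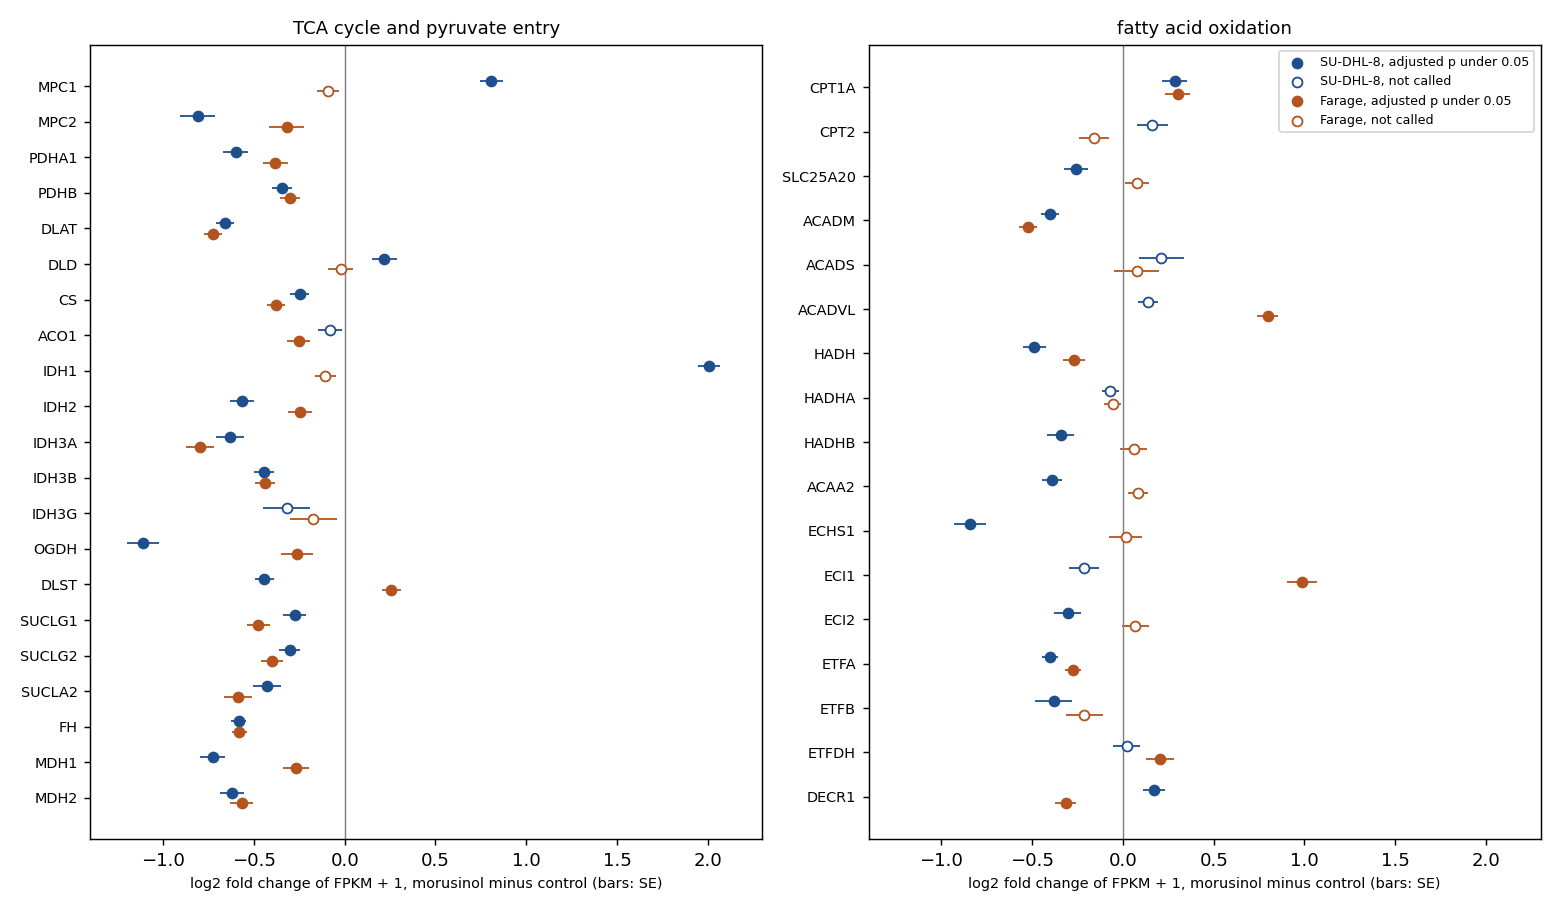
Log2 fold change of FPKM + 1, morusinol minus control, for the 21 tested genes of the TCA cycle and pyruvate entry (left) and the 17 of fatty acid oxidation (right), with SE bars; blue is SU-DHL-8, orange Farage, filled points have an adjusted p under 0.05. On the left most points of both lines lie below 0, while MPC1, DLD and IDH1 in SU-DHL-8 and DLST in Farage lie above it; on the right the orange points spread on both sides of 0, up to 0.99 for ECI1.

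Set side by side, 15 TCA cycle genes were lower in both lines, 3 were higher in SU-DHL-8 and not called in Farage (MPC1, DLD and IDH1), and DLST was lower in SU-DHL-8 and higher in Farage. In fatty acid oxidation 3 genes were lower in both lines (ACADM, HADH and ETFA), and 6 were lower in SU-DHL-8 and not called in Farage. Over all tested genes 21.6% were lower in SU-DHL-8 and 21.2% in Farage. The share of all genes in each of these pairs of calls was not computed, so the counts are a description. The mean log2(FPKM + 1) of the 21 tested TCA cycle genes minus that of the 17 fatty acid oxidation genes was 1.52, 1.5 and 1.53 in SU-DHL-8 controls and 1.37, 1.41 and 1.44 after morusinol. In Farage it was 1.13, 1.18 and 1.13 in controls and 0.769, 0.736 and 0.771 after morusinol. The distance between the pathways was thus smaller after morusinol in every treated library of both lines. These scores describe the chosen genes and were not tested. They include CPT1A and ACADS, near 0 in SU-DHL-8, and were not computed without them, so the lines are not compared. In SU-DHL-8 these genes moved by 0.28 and 0.21 on the log2 scale, which adds to the smaller distance there.

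Whether the responses differed between the lines was tested gene by gene, as the response of Farage less that of SU-DHL-8. In the TCA cycle 7 of 21 genes were called, 5 higher and 2 lower, and in fatty acid oxidation 8 of 17 were called, 7 higher and 1 lower. Without CPT1A and ACADS the fatty acid oxidation count was 8 of 15, again 7 higher and 1 lower. Over all tested genes 34.9% were called, 17.3% higher and 17.6% lower. Of all genes called, 49.6% were higher with the deposited scaling and 62.5% with libraries rescaled to a common sum. With that rescaling the counts were 6 higher and 2 lower for the TCA cycle and 8 higher and 1 lower for fatty acid oxidation. With the deposited scaling, a refit of the genes reaching 5 FPKM in 3 or more libraries called 51.4%, of which 58% were higher.

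The largest difference was that of IDH1, -2.11 ± 0.0834 (adjusted p = 1.44e-07), followed by ECI1 at 1.20 ± 0.117 (adjusted p = 3.16e-05) and MPC1 at -0.90 ± 0.0882 (adjusted p = 3.35e-05). ECHS1, OGDH and DLST differed by 0.86 ± 0.127, 0.85 ± 0.123 and 0.70 ± 0.0716, all less lowered or more raised in Farage. MPC2 and MDH1 differed by 0.49 ± 0.136 and 0.46 ± 0.0992. ACADVL differed by 0.66 ± 0.0795 and ACAA2 by 0.48 ± 0.0795. DECR1 moved in opposite directions in the lines and differed by -0.49 ± 0.083 (adjusted p = 0.00123). For FH the difference was 0.0 ± 0.0594 and for IDH3B 0.0 ± 0.0777 (adjusted p = 0.97 and 0.98), beside log2 fold changes of -0.58 and -0.44 in SU-DHL-8.

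**Figure D4:**
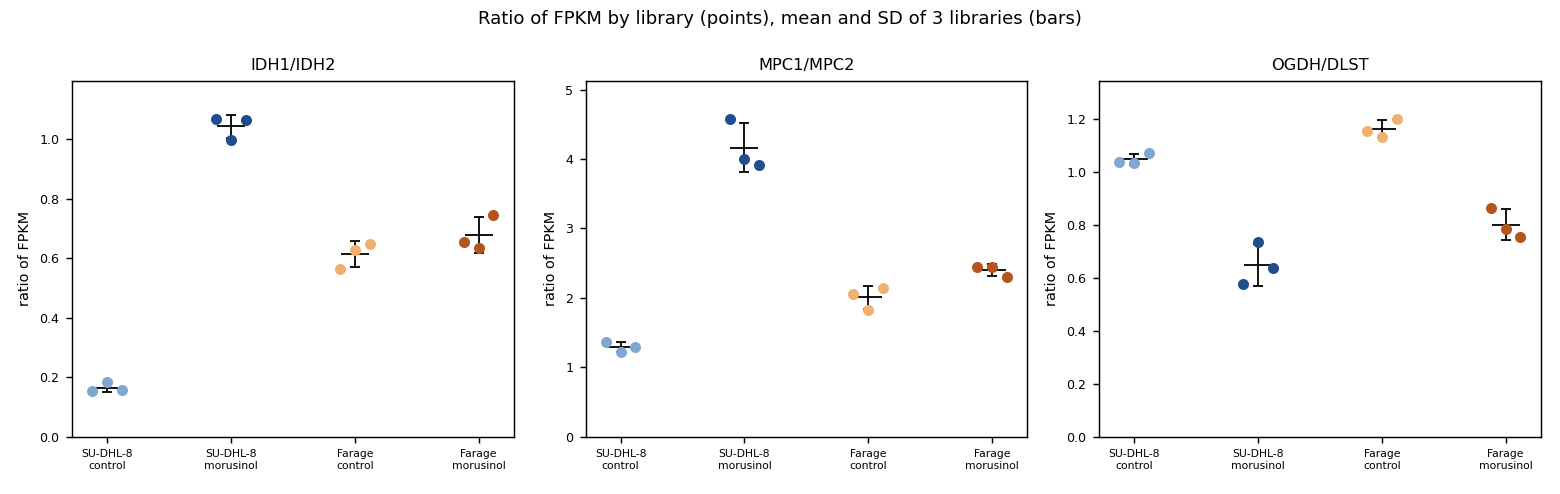
Ratio of FPKM of paired genes in every library (points) with the mean and SD of 3 libraries (bars): IDH1 to IDH2 (cytosolic and mitochondrial isocitrate dehydrogenase), MPC1 to MPC2 (carrier subunits) and OGDH to DLST (E1 and E2 of one complex). The ratio IDH1/IDH2 reaches 1.04 ± 0.0399 after morusinol in SU-DHL-8 and 0.678 ± 0.0596 in Farage; OGDH/DLST is lower after morusinol in both lines.

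Genes around the pathways were read from lists of regulators, partners and carriers. For each list the shares over all tested genes are those given above, 21.6% lower and 25.1% higher in SU-DHL-8 and 21.2% lower and 21.9% higher in Farage. Among 10 tested genes of pyruvate dehydrogenase regulation and lipoylation, 4 were higher and 1 lower in SU-DHL-8, and 2 were higher and 2 lower in Farage (20% each way, near the share of all genes). PDK1, a kinase that inhibits the complex, rose in SU-DHL-8 from 4.44 ± 0.105 to 8.84 ± 0.459 FPKM (0.85 ± 0.0758) and was at 0.11 ± 0.0758 in Farage (adjusted p = 0.3). Another kinase, PDK3, fell in both lines, at -0.48 in SU-DHL-8 (2.57 to 1.57 FPKM) and -0.58 in Farage (13.9 to 8.95 FPKM). LIAS, which makes the lipoyl group of the E2 subunits, rose by 0.60 ± 0.067 in SU-DHL-8, and PDPR, a regulator of the complex's phosphatase, rose by 0.36 in SU-DHL-8 and 0.47 in Farage.

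Of 19 tested genes that exchange carbon with the cycle, 14 were lower and 3 higher in SU-DHL-8, and 13 were lower and 3 higher in Farage. The same genes were the 3 that rose in each line. PCK2, the mitochondrial enzyme that makes phosphoenolpyruvate from oxaloacetate, went from 17.9 ± 0.0113 to 56.6 ± 2.6 FPKM in SU-DHL-8 (1.61 ± 0.0993) and from 7.05 ± 1.03 to 49.4 ± 5.75 FPKM in Farage (2.65 ± 0.0993). GOT1, the cytosolic aspartate aminotransferase, rose by 1.75 ± 0.0509 and 1.19 ± 0.0509, and GPT2, the mitochondrial alanine aminotransferase, by 0.54 ± 0.0498 and 2.90 ± 0.0498. The GPT2 means went from 26.7 to 39.2 FPKM in SU-DHL-8. In Farage they went from 0.99 to 13.8 FPKM, a ratio of 13.99. SLC25A10, the dicarboxylate carrier, was at -1.07 ± 0.166 in SU-DHL-8 (adjusted p = 0.000344) and at -0.08 ± 0.166 in Farage (adjusted p = 0.759).

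Further oxidation enzymes were mixed. Of 12 tested genes of fatty acid activation and other oxidation steps, 7 were lower and 2 higher in SU-DHL-8, and 4 were lower and 2 higher in Farage. MCEE, the methylmalonyl-CoA epimerase of propionate breakdown, rose in SU-DHL-8 by 0.83 ± 0.0987, while HSD17B10, a mitochondrial hydroxyacyl-CoA dehydrogenase, fell in both lines, at -0.63 and -0.69. ACADSB, which acts on short branched chains, fell in both lines (-0.61 and -0.27), and ACAD9, also an assembly factor of respiratory complex I, did likewise (-0.43 and -0.48). Of 8 tested genes of peroxisomal oxidation, 3 were lower and 1 higher in SU-DHL-8 and 2 were lower and 1 higher in Farage. The share lower in Farage, 25%, was near that of all genes. ABCD3, a transporter of the peroxisome membrane, fell in both lines (-0.69 and -0.54).

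Of 12 tested transcriptional regulators of mitochondrial oxidation, 6 were lower and 1 higher in SU-DHL-8 (50% and 8.33%, beside 21.6% and 25.1% of all genes). In Farage 5 were lower and 3 higher (41.7% and 25%, beside 21.2% and 21.9%), so the share higher was near that of all genes. PPARGC1B, a coactivator of mitochondrial genes, went from 3.93 ± 0.348 to 1.65 ± 0.0658 FPKM in SU-DHL-8 (-0.89 ± 0.0604) and from 8.04 ± 0.436 to 5.83 ± 0.164 FPKM in Farage (-0.40 ± 0.0604). Its relative PPARGC1A had group means of at most 0.0158 FPKM. ESRRA, an orphan nuclear receptor of oxidative genes, fell in both lines (-0.43 and -0.54), and TFAM, which packages mitochondrial DNA, did likewise (-0.60 and -0.43).

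Of 15 genes of mitochondrial channels and protein import 10 were lower and 1 higher in SU-DHL-8, and 9 were lower and 3 higher in Farage, with median log2 fold changes of -0.49 and -0.29. The shares lower were 66.7% in SU-DHL-8 and 60% in Farage, beside 21.6% and 21.2% of all genes. SLC25A6, an ADP/ATP carrier, was higher in both lines, and TOMM20, TOMM70, TIMM44 and PHB2 were called lower in neither. TOMM40, the pore of the outer membrane import complex, fell in both lines (-1.04 and -0.97), as did VDAC3 (-0.80 and -0.66), and prohibitin PHB (-1.0 and -0.84). These medians lie near those of the TCA cycle genes, -0.44 and -0.32. Whether the TCA cycle genes moved apart from other mitochondrial genes was not tested.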

How the data were processed

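Gene expression was read from 1 deposited table with a column per library. Per the file's name and values, the authors' unit is FPKM; no source used here names the aligner, counting program, annotation or strand. A SMARTER mRNA kit was used, per the labels' protocols. The submitters' processing notes list only mouse builds (GRCm38 and mm10), yet all 61466 identifiers are human Ensembl identifiers, of which 58297 are in GENCODE release 29 (GRCh38), the source of positions and exon lengths. Columns marked mor were taken as morusinol and those marked n as control, the only other group. FPKM was transformed to log2(FPKM + 1) and fitted with limma 3.58.1 (R 4.3.3), 1 mean per group, with an intensity trend and a robust prior. Tests were two-sided. Tables and plots used Python 3.11.15, pandas 2.3.3 and matplotlib 3.10.9. A run on simulated data was checked first. The genes and lists were chosen with earlier results of these data known. All 39 genes could be named, with library values for those called with a log2 change of at least 1, or a difference of responses of at least 0.5; library values of further members were added after the values were seen. Of each other list, up to 4 called genes with the largest change could be named. Other genes named (PDHX, CPT1B, CPT1C, PPARGC1A, SLC25A6, TOMM20, TOMM70, TIMM44 and PHB2) were chosen after their values were seen. Alternatives covered the pseudocount, filter, scaling, prior, samples in the fit, a replicate block and each library left out. Counts without CPT1A and ACADS were added after seeing the data. The median-of-ratios scaling was computed over tested genes above 0 in all libraries. Promoter windows came from RefSeq (GRCh38.p14).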

Additional observations from a re-analysis of the deposited data

Results flagged for a closer look

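The results here were singled out because the test of the difference itself, the response of Farage less that of SU-DHL-8 on the log2 scale, had an adjusted p under 0.05 in limma. Groups of 3 libraries are too small for the test of a single outlying library, so none was made.

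In the TCA cycle and pyruvate entry the difference was -0.90 for MPC1 and -2.11 for IDH1, which rose in SU-DHL-8 and were not called in Farage. It was 0.49 for MPC2, 0.32 for IDH2, 0.85 for OGDH and 0.46 for MDH1, which fell in both lines and by more in SU-DHL-8. It was 0.70 for DLST, which fell in SU-DHL-8 and rose in Farage.

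In fatty acid oxidation the difference was 0.34 for SLC25A20, 0.40 for HADHB, 0.48 for ACAA2, 0.86 for ECHS1 and 0.37 for ECI2, which fell in SU-DHL-8 and were not called in Farage. It was 0.66 for ACADVL and 1.20 for ECI1, which rose in Farage and were not called in SU-DHL-8. For DECR1, called in opposite directions, it was -0.49.

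Among the genes around the pathways the difference was -0.75 for PDK1, -0.46 for LIAS, 2.36 for GPT2, 1.04 for PCK2, -0.56 for GOT1, 0.99 for SLC25A10, -0.67 for MCEE, 0.34 for ACADSB and 0.49 for PPARGC1B.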

How the results depend on the processing

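Each count of called genes stayed within 1.5 times its value under every alternative run. For morusinol in SU-DHL-8 the counts were 18 to 20 of the TCA cycle genes and 10 to 13 of fatty acid oxidation, and in Farage 15 to 17 and 7 to 8. For the difference of the responses they were 6 to 9 and 6 to 10. The 1 reversed value was CPT1A's difference of the responses with a pseudocount of 0.1, which changed from 0.02 to -1.0. In SU-DHL-8 the gene rests on as few as 4 counting steps, so nothing is read from this change. In SU-DHL-8 the calls of DLD and DECR1 were lost in some alternatives, and ACADVL, CPT2, ECI1 and IDH3G gained one. ACADS also gained one, but it rests on as few as 0 counting steps in a library, so nothing is read from it. Without the third SU-DHL-8 morusinol library the adjusted p was 0.023 for ACADVL. Without the first it was 0.0158 for ECI1 (0.0234 without the third Farage morusinol library). In Farage those of CPT1A, ETFDH, IDH2, MPC2 and OGDH were lost in some. For the difference of the responses, IDH2's call was lost when 1 of 5 libraries was left out (adjusted p from 0.0516 to 0.0564), and those of ECI2, HADHB and SLC25A20 in other alternatives. PDHA1 and DLD gained one without the first Farage control library, CPT2 without the second, and HADH without the third Farage morusinol library. Rescaling to a common sum moved the median of all tested genes between the controls from 0.08 to 0.19. No other scaling, and no other comparison under a scaling, moved it by over 0.1. The filter of 5 FPKM in 3 or more libraries changed the genes tested. With it the median was -0.05 between the controls and 0.04 for the difference of the responses, beside 0.08 and -0.07.

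Replicates of a line share numbers, and a fit with the replicate number as a block gave 20 and 17 called TCA cycle genes and 10 and 7 called fatty acid oxidation genes in SU-DHL-8 and Farage. Deviations of same-numbered control and morusinol libraries correlated across genes with r of -0.079 to 0.033, and not every library correlated best with its own number, so the numbers are not taken to pair the libraries. For the difference of the responses the block gave 8 and 6 called genes.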

Other observations

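Subunits of one enzyme were not present at equal RNA levels. IDH3B stood to IDH3A, its partner in the NAD-dependent isocitrate dehydrogenase, as 10.1 ± 0.677 in SU-DHL-8 controls and 3.21 ± 0.167 in Farage controls (ratio of FPKM, SD, n = 3). After morusinol the ratios were 12.5 ± 1.56 and 4.43 ± 0.603. SUCLG2, the GTP-forming subunit of succinyl-CoA synthetase, stood to the ATP-forming SUCLA2 as 2.72 ± 0.0772 in SU-DHL-8 controls and 1.84 ± 0.048 in Farage controls. After morusinol these ratios were 3.06 ± 0.323 and 2.19 ± 0.128.

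The balance of the malate dehydrogenases was not the same in the lines. In SU-DHL-8 controls cytosolic MDH1 stood to mitochondrial MDH2 as 0.336, 0.331 and 0.29, and in Farage controls as 0.893, 1.15 and 1.16, without overlap between the lines. After morusinol the ratio was 0.292 ± 0.027 in SU-DHL-8 and 1.31 ± 0.0732 in Farage. HADHA stood to HADHB as 2.58 ± 0.163 and 2.87 ± 0.12 in the controls of SU-DHL-8 and Farage. These ratios were chosen after the values were seen and were not tested.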
